A study of Saccharomyces cerevisiae with 6 samples.

Results

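The 10 genes described here encode the factors that end and destroy noncoding transcripts in the nucleus of *S. cerevisiae*. They were listed by systematic name, by a rule that uses no measured value, as *NRD1*, *NAB3* and *SEN1* (the Nrd1-Nab3-Sen1 complex), *PAP2* (also called *TRF4*), *TRF5*, *AIR1*, *AIR2* and *MTR4* (the TRAMP complexes) and *RAT1* and *RAI1* (the Rat1-Rai1 exonuclease). Earlier results of these data were known when the 10 genes were chosen. All 10 were present among the 7445 features of the count table. RNA-Seq was performed on 3 auxin-treated (Rio1-depleted) and 3 mock-treated cultures of 1 strain, PDW2798 (W303 in the labels, W303-1A in the methods). Both groups carry *RIO1-AID::KanMX4*, which fuses the Rio1 kinase to an auxin-inducible degron, and *PADH1-OsTIR1-9myc::URA3*, by which the *ADH1* promoter drives the rice F-box protein that recognises the degron once auxin is present. The cultures grew exponentially at 25 °C in YPDA, and auxin (500 µM in the labels) or a mock was present for 1 h before harvest, although the methods describe a lower concentration for the later minutes. Auxin-treated cells that lack the degron are not analysed here, so an effect of auxin itself and an effect of Rio1 loss cannot be told apart.

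Between 110119744 and 125303818 counts were assigned to genes per culture. The study states a number of mapped read pairs per sample that is several-fold lower, and the source of this difference was not tested. The 10 genes had from 3442 to 95555 counts in a single culture, and their CPM varied between replicates with a CV of 0.82% to 4.31%. Levels are given as CPM, that is, counts relative to library size after TMM scaling, and log2 fold changes are auxin over mock. The TMM scaling factors were 1.086 to 1.093 in the auxin-treated and 0.902 to 0.928 in the mock-treated cultures, and scaling by total counts alone raised the median log2 fold change of all features by 0.25. The 5 markers of *MATa* cells summed to between 2120 and 2209 CPM in the auxin-treated and between 1774 and 1897 CPM in the mock-treated cultures when scaled by total counts alone, and on that scale the 4 markers of the other mating type summed to between 49.0 and 53.1 CPM in the auxin-treated and between 40.8 and 43.1 CPM in the mock-treated cultures. Nearly all of this second sum was *SAG1*, while *STE3* had between 1.17 and 2.23 CPM and the pheromone genes *MF(ALPHA)1* and *MF(ALPHA)2* stayed under 1 CPM in every culture. *RIO1* mRNA itself (YOR119C) averaged 41.0 ± 1.67 CPM in the auxin-treated and 21.5 ± 1.53 CPM in the mock-treated cultures (SD, n = 3 each). The degron removes the protein, so this mRNA does not check the labels.

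The Nrd1-Nab3-Sen1 complex ends the short transcripts that RNA polymerase II makes from snoRNA genes, from cryptic promoters and from the starts of certain mRNA genes. Nrd1 and Nab3 bind short motifs in the emerging RNA, and the helicase Sen1 pulls the transcript off the polymerase. TRAMP then adds a short adenine tail, which hands the RNA to the nuclear exosome for digestion from the 3′ end, while Rat1 digests uncapped RNA from the 5′ end, both behind a polymerase at poly(A) sites and in the maturation of rRNA. The study examined Trf4 and Rat1 for their part in the turnover of transcripts from centromeres, and the question asked of the counts here is whether the mRNAs of these factors were themselves altered by Rio1 depletion. Nrd1 is known to limit its own mRNA by ending transcription near the start of its gene, for which reason the DNA around the start of *NRD1* is shown first, beside that of *PAP2*, since these were the genes with the largest and the smallest change among the 10.

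Both windows run from 250 bases before to 50 bases after the first base of the coding sequence, 5′ to 3′ on the strand of the gene, and come from the reference genome of assembly R64 (chrXIV:174266-174565, minus strand, for *NRD1*, and chrXV:101225-101524, plus strand, for *PAP2*). Capitals mark GTAA or GTAG for the core letters of Nrd1 sites and TCTT or CTTG for those of Nab3 sites, of which the last pair can overlap.
NRD1: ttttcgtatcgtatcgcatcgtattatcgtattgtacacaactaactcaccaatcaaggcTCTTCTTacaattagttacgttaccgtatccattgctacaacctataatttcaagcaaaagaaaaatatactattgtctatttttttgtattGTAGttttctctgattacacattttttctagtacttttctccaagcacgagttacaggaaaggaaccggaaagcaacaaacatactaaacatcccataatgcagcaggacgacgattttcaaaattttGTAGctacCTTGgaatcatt
PAP2: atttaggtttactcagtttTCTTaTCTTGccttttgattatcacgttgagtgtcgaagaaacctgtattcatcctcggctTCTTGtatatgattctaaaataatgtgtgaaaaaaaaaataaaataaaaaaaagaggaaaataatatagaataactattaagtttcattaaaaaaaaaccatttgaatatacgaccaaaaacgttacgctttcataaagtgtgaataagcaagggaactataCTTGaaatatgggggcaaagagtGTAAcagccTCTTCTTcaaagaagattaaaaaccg

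The *NRD1* window held 2 Nrd1 and 3 Nab3 matches on the strand of the gene, with 2 of the 5 behind the start codon, and the *PAP2* window held 1 and 8, with 3 of the 9 behind it. A median of 5 such matches was found in the corresponding windows of 6001 protein-coding genes, and 61.8% of those had at least as many as *NRD1*. The other 8 genes ranged from 2 matches for *AIR2* to 11 for *RAI1*, which 4.2% of all windows reached. On the opposite strand *NRD1* had 11 matches and *PAP2* had 8, against a median of 6. Letters this short are common: GTAA was found on the strand of the gene in 76.4% of all windows (94.7% on either strand) and GTAG in 54.6% (80.2%), while TCTT was found in 85.3% (99.4%) and CTTG in 62.8% (90.9%). The matches are thus a description of these sequences and do not locate a bound site.

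All 10 mRNAs were higher in the auxin-treated cultures, with adjusted p-values of 0.0035 or less in the quasi-likelihood test of edgeR. Their log2 fold changes ran from 0.12 for *PAP2* to 1.32 for *NRD1*, with a median of 0.51, which corresponds to a 1.42-fold higher level. Of all 6397 tested features, 77.0% passed the adjusted p, 38.5% as higher and 38.5% as lower, and the median log2 fold change was close to 0. For each of the 10 genes the lowest auxin-treated culture lay above the highest mock-treated culture, which held for 39.3% of all features. *NRD1* alone also reached an at least 2-fold higher level, as did 7.72% of all features and 3.65% of annotated protein-coding genes. When scaled by total counts alone, *MTR4* reached that level as well, at 1.00. That scaling raised the median of all features by 0.25, and the share of all features at least 2-fold higher with it was not counted. Cultures are bulk samples, so that a shift in the share of cells in a given state and a shift in RNA per cell cannot be told apart. The plot of CPM by culture shows the separation of the groups for each gene.

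**Figure D1:**
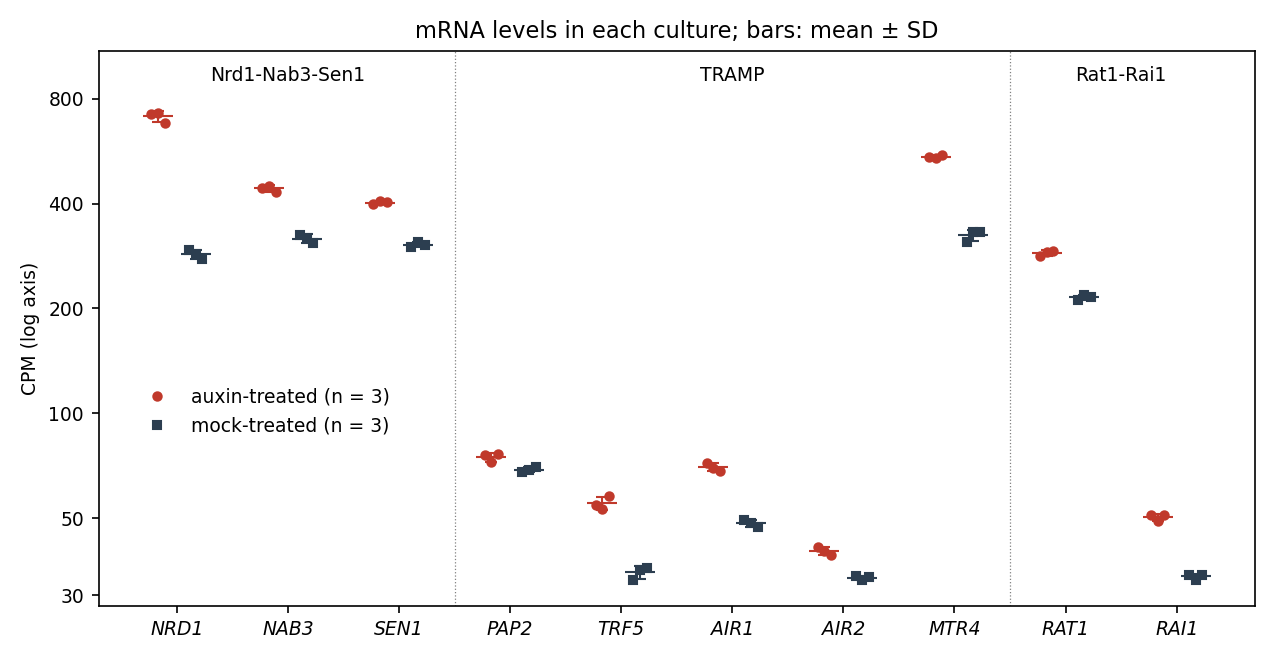
CPM of the 10 mRNAs (log axis) in each auxin-treated culture (red circles) and mock-treated culture (dark squares), with mean ± SD of 3 cultures. The circles lie above the squares for every gene, widely for *NRD1* (713 against 286 CPM on average) and narrowly for *PAP2* (74.8 against 68.8 CPM).

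Within the termination complex, *NRD1* had a higher log2 fold change than the genes of its partners. *NRD1* (YNL251C, chromosome XIV from 172588 to 174315) had 726, 729 and 684 CPM in the auxin-treated cultures, against 294, 287 and 278 CPM in the mock-treated cultures. Even the lowest auxin-treated culture was 2.33 times the highest mock-treated one. *NRD1* thus had a log2 fold change of 1.32 ± 0.03 (SE; 1.8e-09 as the adjusted p of edgeR), and 316 of the 6397 features had a higher one. *NAB3* (YPL190C, chromosome XVI from 185317 to 187725), which encodes the second RNA-binding subunit, had 445, 451 and 432 CPM in the auxin-treated and 326, 319 and 308 CPM in the mock-treated cultures. On the log2 scale it differed by 0.48 ± 0.03 (SE; 2.5e-07 as the adjusted p of edgeR). No auxin-treated culture overlapped with a mock-treated one. *SEN1* (YLR430W, chromosome XII from 993434 to 1000129), the gene of the helicase, had 399, 406 and 404 CPM upon auxin, against 300.4, 310.0 and 304 CPM upon mock treatment. With a log2 fold change of 0.40 ± 0.02 (SE; 2.0e-07 as the adjusted p of edgeR), its groups did not overlap either.

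A ratio of 2 mRNAs within a culture does not depend on how the cultures are scaled. In the auxin-treated cultures there were 1.63, 1.62 and 1.58 *NRD1* counts per *NAB3* count, against 0.904, 0.898 and 0.903 in the mock-treated cultures. *NRD1* thus had more counts than *NAB3* in every auxin-treated culture and fewer in every mock-treated one. These counts do not allow for gene length. Per kilobase of coding sequence, *NRD1* lay above *NAB3* in both groups (166 against 132 CPM upon mock treatment). On the log2 scale the ratio of *NRD1* to *NAB3* counts differed by 0.84. It was 0.69 ± 0.02 upon auxin and -0.15 ± 0.004 upon mock treatment (SD, n = 3 each). *NRD1* relative to *SEN1* differed by 0.91, at 0.82 ± 0.05 in the auxin-treated and -0.09 ± 0.05 in the mock-treated cultures (SD, n = 3 each). The auxin- and mock-treated cultures did not overlap in either ratio, nor in the other 4 ratios computed. The share of other gene pairs without overlap was not counted, and 77.0% of all single features passed the adjusted p of edgeR. The separation is thus not shown to be particular to these pairs. A two-sided exact permutation test gave p = 0.1 for each of the 6 ratios, the smallest that 3 cultures against 3 allow, and an adjusted p of 0.1 over the 6, so that none can pass a threshold of 0.05.

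The TRAMP genes fall into poly(A) polymerases, RNA-binding subunits and a helicase. Pap2 and Trf5 are alternative poly(A) polymerases, each found in its own form of TRAMP. *PAP2* (YOL115W, chromosome XV from 101475 to 103229) had 75.9, 72.3 and 76.3 CPM in the auxin-treated cultures, against 67.8, 68.6 and 70.0 CPM in the mock-treated cultures. The groups were separated by a narrow gap, with the lowest auxin-treated culture 1.03 times the highest mock-treated one. Its log2 fold change of 0.12 ± 0.03 (SE; 0.0035 as the adjusted p of edgeR) was the lowest of the 10, and 2401 features had a higher one. *TRF5* (YNL299W, chromosome XIV from 66517 to 68445) had 54.7, 53.0 and 57.7 CPM upon auxin, against 33.3, 35.4 and 36.0 CPM upon mock treatment. On the log2 scale it differed by 0.66 ± 0.04 (SE; 3.4e-07 as the adjusted p of edgeR). Every auxin-treated culture was above every mock-treated one. In the auxin-treated cultures there were 1.39, 1.36 and 1.32 *PAP2* counts per *TRF5* count, against 2.04, 1.94 and 1.94 in the mock-treated cultures. The log2 ratio differed by -0.54, at 0.44 ± 0.04 upon auxin and 0.98 ± 0.04 upon mock treatment (SD, n = 3 each). For the assignment of reads, their coding sequences were identical at 66.9% of the aligned bases and shared no identical run of more than 20 bases.

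Air1 and Air2 are zinc-knuckle proteins that bind the substrate RNA in TRAMP, and they can replace each other in part. *AIR1* (YIL079C, chromosome IX from 210923 to 212005) had 71.9, 69.7 and 68.4 CPM in the auxin-treated cultures, against 49.2, 48.3 and 47.2 CPM in the mock-treated cultures. *AIR2* (YDL175C, chromosome IV from 144484 to 145518) had 41.3, 40.2 and 39.2 CPM upon auxin, against 34.0, 33.2 and 33.8 CPM upon mock treatment. Both rose, *AIR1* by a log2 fold change of 0.54 ± 0.03 (SE; 1.3e-07 as the adjusted p of edgeR) and *AIR2* by 0.26 ± 0.03 (SE; 4.0e-05 as the adjusted p of edgeR). The number of *AIR1* counts per *AIR2* count was 1.74, 1.73 and 1.75 in the auxin-treated cultures, against 1.45, 1.46 and 1.40 in the mock-treated cultures. This is a difference of 0.28 on the log2 scale, in which replicates had SDs of 0.01 (auxin) and 0.03 (mock). The longest run of bases shared by both coding sequences was 18.

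*MTR4* (YJL050W, chromosome X from 342522 to 345743) encodes the helicase that threads RNA into the exosome, both within TRAMP and apart from it. It had 546, 542 and 551 CPM in the auxin-treated cultures, against 311, 331 and 331 CPM in the mock-treated cultures. After *NRD1* this was the second highest change of the 10, with a log2 fold change of 0.75 ± 0.03 (SE; 1.4e-08 as the adjusted p of edgeR). There were 7.19, 7.50 and 7.22 *MTR4* counts per *PAP2* count upon auxin, against 4.59, 4.83 and 4.72 upon mock treatment. The log2 ratio differed by 0.63, at 2.87 ± 0.03 upon auxin and 2.24 ± 0.04 upon mock treatment (SD, n = 3 each). Together, the 5 TRAMP genes rose by a median log2 fold change of 0.54, and *PAP2* and *AIR2* had the lowest changes.

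Rat1 is the nuclear exoribonuclease that degrades RNA from the 5′ end, and Rai1 is its partner, which stabilises it and removes faulty caps. *RAT1* (YOR048C, chromosome XV from 418630 to 421650) had 283, 290.3 and 292 CPM in the auxin-treated cultures, against 212, 218 and 215 CPM in the mock-treated cultures. *RAI1* (YGL246C, chromosome VII from 37617 to 38780) had 50.8, 49.0 and 51.1 CPM upon auxin, against 34.4, 33.2 and 34.3 CPM upon mock treatment. *RAT1* had a log2 fold change of 0.42 ± 0.02 (SE; 1.8e-07 as the adjusted p of edgeR) and *RAI1* had one of 0.57 ± 0.03 (SE; 1.2e-07 as the adjusted p of edgeR). Both mRNAs rose, with no overlap between the groups. There were 5.56, 5.93 and 5.71 *RAT1* counts per *RAI1* count in the auxin-treated cultures, against 6.17, 6.56 and 6.27 in the mock-treated cultures, which amounts to -0.14 on the log2 scale, with replicate SDs of 0.05 in both groups.

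**Figure D2:**
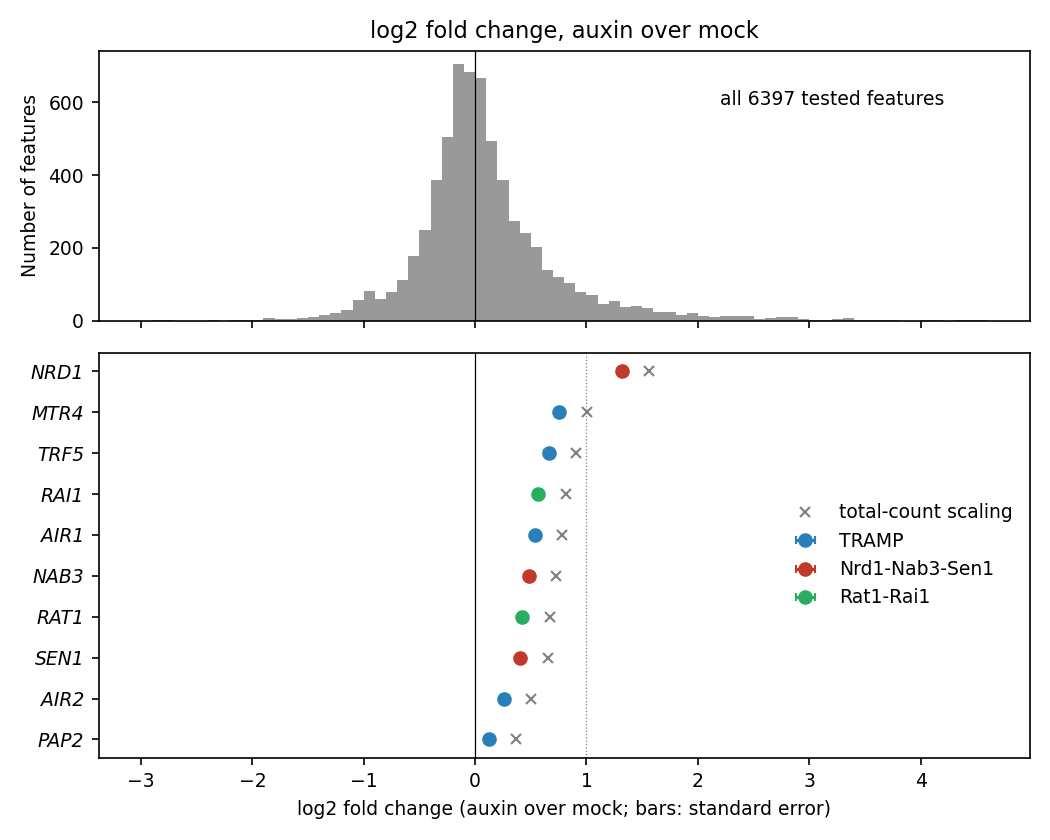
Log2 fold change (auxin over mock) of all 6397 tested features as a histogram (upper plot) and of the 10 genes as points (lower plot), which cover most of their standard error bars, while crosses give the value with total-count scaling. All 10 points lie to the right of 0, and *NRD1* at 1.32 lies past the dotted line at 1.

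**Figure D3:**
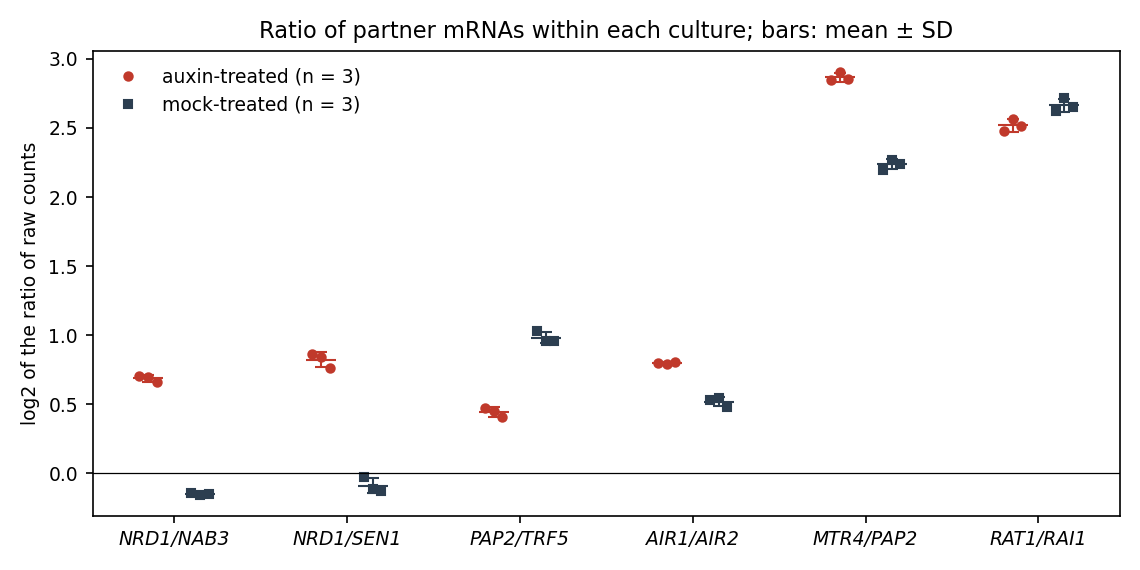
Log2 of the ratio of raw counts of 2 mRNAs within each auxin-treated culture (red circles) and mock-treated culture (dark squares), with mean ± SD of 3 cultures. The groups do not overlap for any of the 6 pairs, and the difference is widest for *NRD1/SEN1* (0.91) and narrowest for *RAT1/RAI1* (-0.14). The share of other gene pairs without overlap was not counted.

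Levels of different genes were compared per length, as CPM per kilobase of coding sequence. In the auxin-treated cultures, *NRD1* was the most abundant, with 413 ± 14.6 CPM per kilobase, ahead of *NAB3* (184 ± 3.91), *MTR4* (170 ± 1.39) and *RAT1* (95.5 ± 1.68; SD, n = 3 each). *AIR1*, *SEN1*, *RAI1*, *PAP2*, *AIR2* and *TRF5* followed, between 64.6 and 28.6 CPM per kilobase. Neighbours in this order did not overlap between cultures, except for *RAI1* (43.2 ± 1.01) and *PAP2* (42.6 ± 1.26). In the mock-treated cultures the same 4 genes led, with 166 ± 4.77 CPM per kilobase for *NRD1*, 132 ± 3.75 for *NAB3*, 101 ± 3.49 for *MTR4* and 71.2 ± 1.00 for *RAT1* (SD, n = 3 each). *SEN1* (45.5 ± 0.73) overlapped there with *AIR1* (44.5 ± 0.91), and they were followed by *PAP2*, *AIR2*, *RAI1* and *TRF5*, the last at 18.1 ± 0.74 CPM per kilobase. *RAI1* thus stood beside *PAP2* and above *AIR2* in the auxin-treated cultures, and below both in the mock-treated cultures. *TRF5* was the least abundant of the 10 in both groups.

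The nuclear exosome, which digests the RNAs that TRAMP tags, was examined as a list of 13 subunits and cofactors. All 13 were higher upon auxin past the adjusted p of 0.05, as were 38.5% of all features, with a median log2 fold change of 0.54. The highest was that of *LRP1*, the partner of the exonuclease Rrp6, at 0.80, and the lowest that of *MTR3*, a subunit of the core ring, at 0.31. Of the 3 genes in the list of Mtr4 adaptors and relatives, *NOP53*, whose product brings Mtr4 to pre-rRNA, rose most (0.63), and *SKI2*, the cytoplasmic relative of *MTR4*, rose least (0.18). All 5 genes listed as partners or relatives of Rat1 rose as well, from *XRN1*, its cytoplasmic counterpart (0.14), to *GRC3*, a kinase that works with the nuclease Las1 in pre-rRNA processing (0.46).

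Factors of poly(A) site cleavage and of early elongation had medians closer to 0 and members in both directions. Of 20 cleavage and termination factors, 11 were higher, 2 were lower and 7 did not pass the adjusted p, with a median of 0.08, beside 38.5% of all features in each direction. With scaling by total counts alone, 19 were higher and none lower, beside 64.6% of all features higher and 16.8% lower. *HRP1*, whose product binds the RNA upstream of the cleavage site, had the highest log2 fold change of that list, with 698 ± 15.9 CPM in the auxin-treated and 389 ± 2.78 CPM in the mock-treated cultures (SD, n = 3 each) and a log2 fold change of 0.84 ± 0.03 (SE; 3.6e-09 as the adjusted p of edgeR). *PFS2*, a scaffold subunit, had the lowest at -0.23, which turned to 0.02 with total counts alone. Among 10 cap-binding and elongation factors, 5 were higher, 1 was lower and 4 did not pass, whereas 9 were higher and 1 lower with total counts alone. *SPT5*, an elongation factor, was highest at 0.21, and *ESS1*, a prolyl isomerase that acts on the tail of RNA polymerase II, was lowest at -0.66 and stayed lower with total counts alone (-0.41).

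Finally, 2 kinds of genes on which this machinery acts were followed. Of 7 mRNAs known in this species to be attenuated by Nrd1, Nab3 and Sen1, 4 were higher (*HRP1*, *URA8*, *PCF11* and *GSC2*) and 3 lower (*IMD2*, *ADE12* and *URA2*) in the auxin-treated cultures, with the same directions under total-count scaling. *HRP1* was the highest at 0.84, and *IMD2*, an enzyme gene of guanine nucleotide synthesis, was the lowest at -0.77. Genes similar to *IMD2* exist (such as *IMD3* and *IMD4*), and how far their reads could be told apart was not tested. Many snoRNA genes end through the same complex. Where the next gene on the strand of a snoRNA gene was protein-coding and within 1000 bp, it was tested, in 31 cases. Only snoRNA genes within another gene on their strand were left out, so the list is not restricted to those that end through this complex. Of the 31, 14 were higher, 14 lower and 3 not past the adjusted p, with a median of -0.003. This split is near the 38.5% of all features in each direction. Total-count scaling gave 19 higher and 8 lower, where 64.6% of all features were higher and 16.8% lower. Within 500 bp there were 7 higher and 11 lower among 21 genes, and within 2000 bp 16 higher and 22 lower among 41. The gene behind *SNR13*, *TRS31*, which is often used to follow transcription that fails to stop at the snoRNA, had 39.2 ± 0.13 CPM in the auxin-treated and 51.0 ± 0.45 CPM in the mock-treated cultures (SD, n = 3 each), which is -0.38 on the log2 scale. Of the 31, *YDR042C* behind *SNR47* (2.76), *FLX1* behind *SNR68* (1.75) and *RGT1* behind *SNR69* (1.30) were the only genes at least 2-fold higher. That level was reached by 7.72% of all features and by 3.65% of annotated protein-coding genes, the kind to which all 31 belong. Of the 31, 1 gene was at least 2-fold lower, as were 2.55% of all features, and is named after its value was seen. This was *DFR1*, the dihydrofolate reductase gene behind *SNR17A*, with 16.6 ± 0.47 CPM in the auxin-treated and 41.7 ± 1.16 CPM in the mock-treated cultures (SD, n = 3 each), which is -1.33 on the log2 scale and -1.08 with total counts alone.

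**Figure D4:**
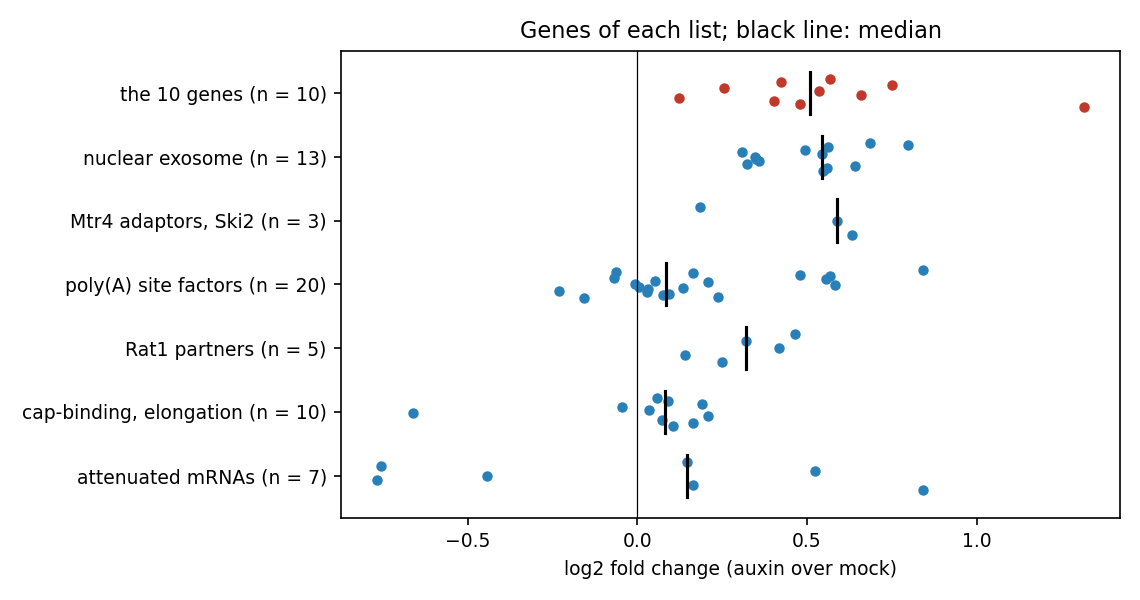
Log2 fold change (auxin over mock) of the 10 genes (red) and of the genes of 6 related lists (blue), with a black line at each median. The 10 genes and the 13 exosome genes all lie above 0, with medians of 0.51 and 0.54, while the poly(A) site factors spread around a median of 0.08. *HRP1* and *PCF11* are shown both among the poly(A) site factors and among the attenuated mRNAs.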

How the data were processed

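RNA was extracted from 3 auxin-treated and 3 mock-treated cultures, rRNA was removed, and directional libraries were sequenced in paired-end mode. The authors used Trimmomatic to filter reads and STAR to align them to sacCer3 (R64), with 1 alignment given for a read with several, and deposited the raw counts per gene that STAR assigned, without normalization. The annotation release, the strand setting and the treatment of reads with the same molecular identifier are not given in the sources used here. Each column was assigned to its culture by the digit (biological repeat) and the letter a (auxin) in its name. The labels call the cultures biological repeats, and the study states that its cultures were raised separately.

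From the deposited counts, features were filtered with filterByExpr, scaled with TMM factors and tested with glmQLFit and glmQLFTest of edgeR 4.0.16 in R 4.3.3, with the condition as the only term and Benjamini-Hochberg adjustment over 6397 features, at a threshold of 0.05, while 2-fold changes had to reach 1 on the log2 scale as well. On simulated data, the edgeR fit recovered 92 of 100 log2 changes of size 0.5 and 99 of 100 of size 1. It made 9 false calls among 6396 tested features. The simulation held no shift in scaling between the groups, so it does not test the TMM factors. It also changed far fewer features than were called here, evenly in both directions, and gave every feature the same spread between replicates. Its rates thus need not hold for these data. Standard errors are the log2 fold change divided by the root of the F statistic. The fit was repeated with other scalings (RLE, upper quartile, total counts), without the filter or with at least 10 counts in every sample, with DESeq2 1.42.0, with glmTreat, with a replicate block, and with each culture omitted. Ratios of counts were compared with exact permutation tests (SciPy 1.17.1). Positions, symbols and sequences are from the RefSeq annotation and genome of R64, in which no gene overlaps any of the 10, and coding sequences were aligned with Biopython 1.88. All 10 genes are named, and from each related list the genes with the highest and the lowest log2 fold change and any with a 2-fold change, and, for genes behind snoRNA genes, *TRS31* and the 3 highest. The directions of all 7 attenuated mRNAs were named after their values were seen. The members and lists were chosen with earlier results of these data known, and lists are described by counts and medians without a set test.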

Additional observations from a re-analysis of the deposited data

How the results depend on the processing

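Over 14 alternatives, all 140 recomputed log2 fold changes of the 10 genes were higher upon auxin. In the 13 alternatives that test against no change, all 130 values stayed past an adjusted p of 0.05, and the lowest was 0.10 for *PAP2* with a culture left out. Tested with edgeR's glmTreat against a 2-fold change, 1 of the 10 genes passed (*NRD1*), as did 344 (5.38%) of all features. Of the 56 related genes, 0 passed it in either direction. Against no change 45 of these 56 passed, beside 77.0% of all features. Of the 31 genes behind snoRNA genes, 3 higher and 1 lower passed glmTreat. With total counts alone, 2 genes (*NRD1* and *MTR4*) were at least 2-fold higher, *MTR4* only just, at 1.00. The share of all features that were at least 2-fold higher with that scaling was not counted. By the adjusted p without a fold threshold, the split over all features was 4131 higher and 1072 lower, against 2462 and 2465 with TMM scaling. The median of the 10 genes lay 0.51 above that of all features with either scaling. A change of scaling moves all log2 fold changes by nearly the same amount, so this difference could hardly vary and is no check. With each culture left out in turn, *NRD1* ranged from 1.29 to 1.35, and *NRD1* remained the only gene of the 10 with a 2-fold change. Within 500 bp of a snoRNA gene, 7 of 21 genes were higher and 11 lower, and within 2000 bp 16 of 41 were higher and 22 lower, beside 14 and 14 of 31 within 1000 bp. Deviations from the group mean correlated at 0.16, -0.03 and 0.25 between cultures with the same number. Between cultures with different numbers they correlated at -0.26 to 0.13. The main fit did not take cultures as pairs. The replicate block left all 10 genes past the adjusted p and gave 5159 calls over all features, against 4927 without it. The lowest count of any of the 10 genes in a culture was 3442. No strain without the degron and no added RNA standard bears on the scaling.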

Other observations

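The count table has 476 tested features with the systematic name of an ORF that the RefSeq annotation of R64 does not list, a set chosen after the data were seen. Their level was low, with a median over features of 0.256 CPM in the mock-treated cultures, and of 51.8 CPM for 5829 annotated protein-coding genes. Upon auxin, 368 of the 476 rose and 10 fell in the quasi-likelihood test of edgeR, at a threshold of 0.05 for the adjusted p, with a median log2 fold change of 1.12, and 262 (55.0%) were at least 2-fold higher. Of the annotated protein-coding genes, 2061 were higher and 2431 lower, with a median of -0.03, and 213 (3.65%) were at least 2-fold higher. The filter asks for a minimum count in only as many cultures as a group holds. A feature near the floor could thus enter through the auxin-treated cultures alone, which can raise the share called higher. How far the unlisted features overlap annotated genes, and the part that the filter and their low counts have in these values, was not tested.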
